A study of Flaveria angustifolia and Flaveria bidentis and Flaveria brownii with 21 samples.

Results

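Messenger RNA of 40 cytosolic ribosomal protein loci was read from leaf transcriptomes of Flaveria, a daisy family genus whose species span C3, intermediate and C4 photosynthesis. The 40 loci were chosen as a list of Arabidopsis locus identifiers and not by a cut on their values, though earlier results of these data were known. All 40 were found among the 20551 loci of the deposited table. They comprise 23 loci of the large ribosomal subunit, among them both copies of the stalk base protein P0, and 17 loci of the small subunit, and they fall into 28 protein families. The values are in RPM, which sum to 1e+06 in every library, and Flaveria reads were assigned to Arabidopsis loci, so each value describes the reads given to that locus rather than a sequenced Flaveria gene.

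The series holds 21 samples, of which 18 Flaveria libraries of 11 species entered the comparisons and 3 libraries of other genera were not analysed here. Mature leaves, the newest that had finished expanding, gave 8 libraries, from F. angustifolia, F. bidentis, F. brownii, F. cronquistii, F. kochiana, F. pringlei, F. pubescens and F. trinervia. Juvenile leaves, which had only begun to expand from the main stem, gave 10 libraries, from those species without F. kochiana and from F. palmeri, F. sonorensis and F. vaginata. All plants were greenhouse plants of the named species, and the labels name no treatment, transgene or mutation. Leaves of several plants went into a library, with 1 library for a species at a stage, so p-values rest on the spread between species and not between plants of a species. By textbook classification, which the labels do not give, F. bidentis, F. kochiana and F. trinervia are C4, F. brownii, F. palmeri and F. vaginata are C4-like, F. angustifolia, F. pubescens and F. sonorensis are C3-C4 intermediates, and F. cronquistii and F. pringlei are C3. Below, C4-type means C4 and C4-like species, and C3-type means C3 and C3-C4 species.

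The cytosolic ribosome of plants translates all nuclear messages. Its large subunit forms peptide bonds and its small subunit decodes the message, and each protein of either subunit is encoded by several nearly identical nuclear genes. Because each ribosome needs a copy of every core protein, the genes of both subunits are usually transcribed together, most strongly in tissues whose cells grow and divide. In young leaves, ribosome production supports proliferation and early expansion, and in Arabidopsis the loss of single ribosomal protein genes often gives narrow, pointed leaves or disturbs the upper and lower leaf faces.

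Library depth, recovered from the RPM steps, ran from 5.40 to 9.15 M reads (M, 1e+06 reads), with 6.86 ± 1.21 M in mature and 6.53 ± 1.07 M in juvenile libraries (mean ± SD, n = 8 and 10). A count of 0, read as fewer than 3 reads, allows up to 0.328 to 0.556 RPM at these depths, for counting error only. The 50 loci with most reads took 34.1 ± 4.82% of mature and 27.0 ± 3.36% of juvenile reads. Summed RPM of 5 green leaf markers ran from 16020 to 89481 in mature and from 15899 to 77615 in juvenile libraries, so both stages carried leaf transcripts. The stem cell gene WUS was listed at 0 in 16 of the 18 libraries and the meristem gene STM in 13. Of the 5 listed shoot meristem and flower markers, 2 averaged at least 2 RPM over the 14 libraries of the 7 species with both stages. Their changes are given below.

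Every testable ribosomal protein locus was lower in mature than in juvenile leaves. Of the 40 loci, 39 reached a mean of 2 RPM over the 14 libraries of the 7 species with both stages, 22 of the large and 17 of the small subunit, and all 39 fell at an adjusted p under 0.05 (limma on log2(RPM + 1) with species as a block, Benjamini-Hochberg over all 14500 tested loci). Over all tested loci, 37.6% fell and 12.7% rose under the same rule. Fitted changes of the 39 ran from −2.04 to −1.31 on the log2 scale, that is 2.48- to 4.10-fold lower, with a median of −1.63 (3.10-fold lower). The median of all tested loci was −0.31, so the members' median lay at −1.33 relative to it. Adjusted p ran from 1.12e-05 to 0.000327, and its highest value in any fit with 1 species left out was 0.00146. With TMM scaling, which set the median of all loci to 0.00, the members' median was −1.29 and 39 fell, against 21.8% of all loci that fell and 23.2% that rose. As deposited, the fitted change was below 0 for 39 of 39 members and for 66.8% of all tested loci. Each of the 39 members was lower in the mature leaf of 7 of 7 species, a pattern found in 28.5% of all tested loci. In bulk leaf RNA, fewer cells of a kind and less RNA per cell cannot be told apart.

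**Figure D1:**
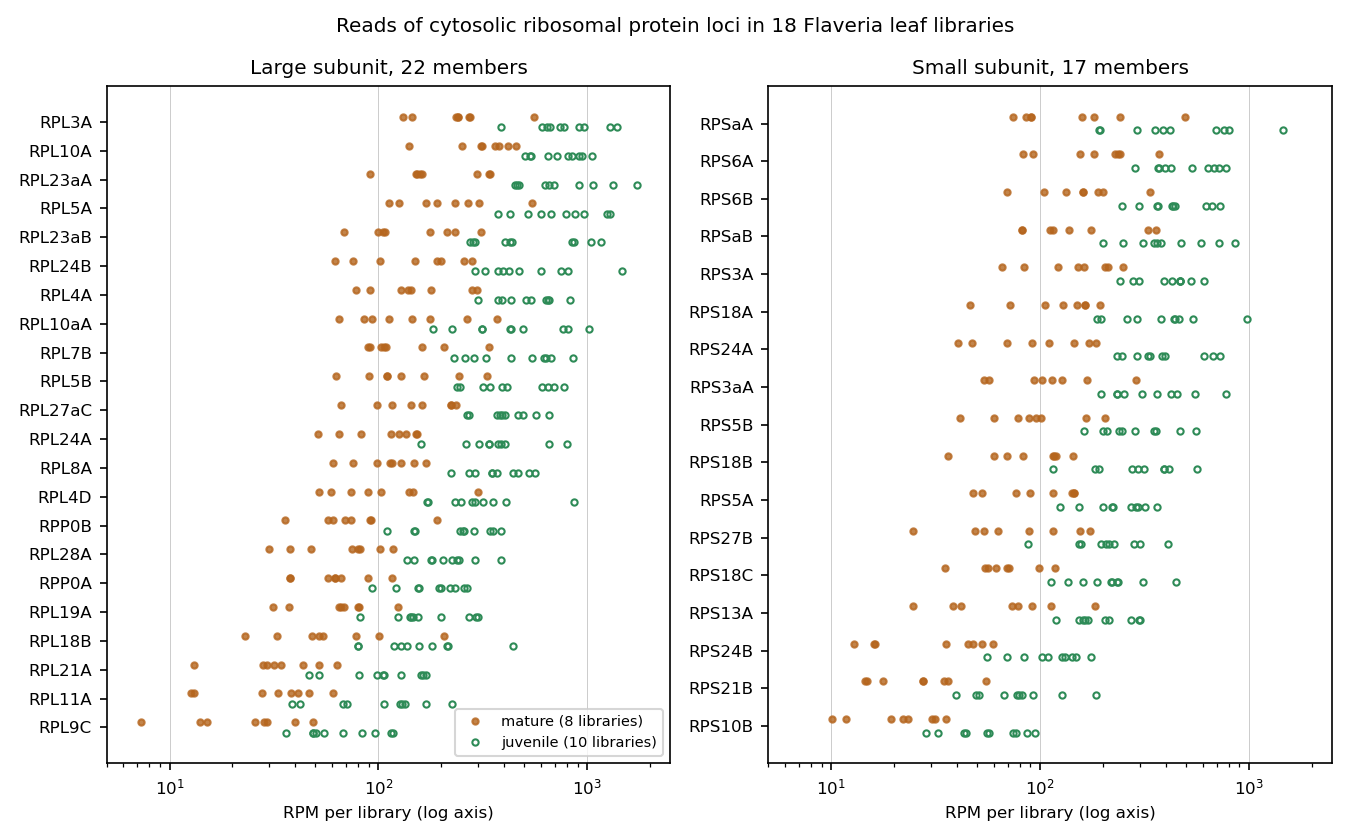
RPM (log axis) of the 39 tested members in each library, with mature leaves as filled brown points above juvenile leaves as open green points in each row, large subunit left and small subunit right. The mature points of each row are centred to the left of its juvenile points, and the stages do not overlap for 9 members, among them RPL10A and RPS24A; levels cannot be compared between rows because RPM is not scaled to gene length.

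The remaining member, RPL9B (AT1G33120), had 0 to 3 reads per library and 16 reads in all 18 libraries, between 0 and 0.256 RPM in mature and between 0 and 0.358 RPM in juvenile leaves. It was not tested. Its close copy RPL9C (AT1G33140), which in Arabidopsis is needed for normal leaf polarity, took 7.30 to 48.6 RPM in mature leaves (median 27.0) and 36.0 to 118 RPM in juvenile leaves (median 61.2). How reads were divided between such copies is not given in the sources used here, so the values of single copies are uncertain throughout. RPL9C fell by 1.55 ± 0.25 (log2 change ± SE), with the largest standard error of the 39.

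Around the peptidyl transferase centre, where peptide bonds form, RPL3A (AT1G43170) had 132, 240 and 558 RPM in mature leaves (lowest, median and highest of 8) and 385, 760 and 1392 RPM in juvenile leaves (of 10). The mature leaf of F. cronquistii alone reached above the lowest juvenile library, that of F. sonorensis, and the fitted change was −1.81 ± 0.17 (adjusted p = 1.74e-05). RPL8A (AT2G18020), another protein of this centre, had 60.9, 115 and 169 RPM in mature leaves and 223, 362 and 560 RPM in juvenile leaves, and it fell by 1.68 ± 0.16. RPL10A (AT1G14320), which also lies close to the centre and in Arabidopsis is a target of the immune receptor kinase NIK1, had 140, 337 and 456 RPM in mature leaves and 504, 765 and 1050 RPM in juvenile leaves. The stages of RPL8A and of RPL10A did not overlap in any of the 18 libraries. RPL10A nevertheless had the smallest change of all members, −1.31 ± 0.18 (adjusted p = 0.00011), and with TMM scaling −0.96.

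At the exit tunnel, through which the new protein leaves, RPL23aA (AT2G39460) had 90.8, 160 and 344 RPM in mature leaves and 452, 673 and 1736 RPM in juvenile leaves. The highest juvenile value came from F. brownii, and no mature library reached the lowest juvenile one. Its change of −1.98 ± 0.17 was the largest of the large subunit (adjusted p = 1.12e-05). The second copy, RPL23aB (AT3G55280), had 68.8, 142 and 311 RPM in mature leaves and 275, 430 and 1166 RPM in juvenile leaves, and fell by 1.90 ± 0.17. Here the mature leaf of F. cronquistii lay above 3 juvenile libraries.

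RPL24 forms a bridge between the subunits, and in Arabidopsis the copy RPL24B (SHORT VALVE1) helps ribosomes restart on messages with upstream reading frames, among them those of auxin response factors. RPL24B (AT3G53020) had 61.9, 171 and 282 RPM in mature leaves and 289, 445 and 1472 RPM in juvenile leaves. RPL24A (AT2G36620) had 51.6, 120 and 153 RPM in mature leaves and 160, 356 and 802 RPM in juvenile leaves. For both copies every mature library was below every juvenile library, and F. pubescens was highest at both stages. The fitted change was −1.93 ± 0.22 for RPL24A and −1.91 ± 0.24 for RPL24B (adjusted p = 4.12e-05 and 6.89e-05).

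RPL11A (AT2G42740), which with RPL5 binds the 5S ribosomal RNA, had 12.6, 35.7 and 60.5 RPM in mature leaves and 38.7, 116 and 226 RPM in juvenile leaves. The mature leaves of F. angustifolia, F. pubescens and F. trinervia lay above the lowest juvenile library, and the fitted change was −1.58 ± 0.23. RPL18B (AT3G05590) had 22.9, 53.3 and 205 RPM in mature leaves and 79.9, 147 and 441 RPM in juvenile leaves, with F. cronquistii highest at both stages, and fell by 1.48 ± 0.18. RPL27aC (AT1G70600), whose loss disturbs shoot and leaf development in Arabidopsis, had 66.0, 153 and 236 RPM in mature leaves and 267, 398 and 654 RPM in juvenile leaves, with no overlap, and fell by 1.51 ± 0.18. With RPL10A, RPL18B and RPL27aC had the 3 smallest changes of the large subunit. The other 12 tested loci of this subunit (RPL4A, RPL4D, RPL5A, RPL5B, RPL7B, RPL9C, RPL10aA, RPL19A, RPL21A, RPL28A and both P0 copies) had changes from −1.74 to −1.53.

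In the small subunit, RPS24A (AT3G04920) had 40.5, 101 and 185 RPM in mature leaves and 233, 360 and 725 RPM in juvenile leaves, with no overlap. Its change, −2.04 ± 0.23, was the largest of all members (adjusted p = 3.86e-05). The second copy, RPS24B (AT5G28060), had 12.8, 40.3 and 59.4 RPM in mature leaves and 55.6, 118 and 176 RPM in juvenile leaves, and fell by 1.83 ± 0.21. Only F. cronquistii, at 59.4 RPM in mature leaves, reached past the lowest juvenile value of RPS24B.

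RPSaA (AT1G72370), which is needed late in the assembly of the small subunit, had 74.0, 125 and 496 RPM in mature leaves and 191, 404 and 1461 RPM in juvenile leaves. F. cronquistii was highest at both stages, its mature leaf lay above 6 juvenile libraries, and the fitted change was −1.79 ± 0.18. RPS18B (AT1G34030) had 36.1, 98.7 and 144 RPM in mature leaves and 116, 305 and 565 RPM in juvenile leaves, and fell by 1.81 ± 0.20. Its copy RPS18A (AT1G22780), known in Arabidopsis for the pointed first leaf of its mutant, changed by −1.77 ± 0.18, and RPS13A (AT4G00100), whose mutant looks alike, by −1.50 ± 0.19.

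RPS6 is the ribosomal substrate of S6 kinase in the TOR growth pathway. RPS6A (AT4G31700) had 82.6, 205 and 371 RPM in mature leaves and 285, 478 and 776 RPM in juvenile leaves, and RPS6B (AT5G10360) had 69.4, 161 and 335 RPM in mature leaves and 247, 432 and 728 RPM in juvenile leaves. For both, F. cronquistii was the 1 mature library above the lowest juvenile one. The fitted change was −1.52 ± 0.20 for RPS6A and −1.60 ± 0.20 for RPS6B.

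The smallest changes of the small subunit were those of RPS5A, RPS27B and RPS3A. RPS5A (AT3G11940), whose Arabidopsis promoter is used to mark dividing cells, had 47.7, 102 and 145 RPM in mature leaves and 125, 248 and 363 RPM in juvenile leaves, a change of −1.35 ± 0.15. RPS27B (AT3G61110), named for its part in the response of Arabidopsis to ultraviolet light, had 24.6, 75.4 and 174 RPM in mature leaves and 87.5, 211 and 409 RPM in juvenile leaves, a change of −1.40 ± 0.17. The mature leaves of 4 species lay above the lowest juvenile value of RPS27B. RPS3A (AT2G31610), at the channel where the message enters, had 65.5, 157 and 249 RPM in mature leaves and 242, 448 and 609 RPM in juvenile leaves, a change of −1.44 ± 0.16. The range over the 17 small subunit loci was −2.04 to −1.35.

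Over all 18 libraries, 9 of the 39 members had every mature value below every juvenile value (RPL4A, RPL8A, RPL10A, RPL23aA, RPL24A, RPL24B, RPL27aC, RPL28A and RPS24A), against 4.43% of tested loci. Within the 14 libraries of the 7 paired species the number was 19, against 7.10% of tested loci. The difference between these counts comes from libraries without a partner, since F. sonorensis had the lowest juvenile value of most members.

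The subunits fell to a similar extent. The median change was −1.65 for the 22 large subunit loci (−1.98 to −1.31) and −1.60 for the 17 small subunit loci, and −1.30 and −1.26 with TMM scaling. Summed RPM of the large subunit members divided by that of the small subunit members was 1.64 ± 0.171 in mature leaves (1.43 to 1.89, n = 8) and 1.73 ± 0.163 in juvenile leaves (1.48 to 1.98, n = 10). Mature minus juvenile, this ratio differed by −0.071 ± 0.133 over 7 species, from −0.243 in F. brownii to 0.145 in F. angustifolia, and it was lower in the mature leaf of 5 of 7 species. That mean is smaller than the spread between species. The absolute ratio depends on how many loci of each subunit are on the list.

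Summed over the 40 members, mature leaves held 4841 ± 2091 RPM (n = 8), or 0.484% of reads, and juvenile leaves held 14653 ± 5090 RPM (n = 10), or 1.47% of reads. Among mature leaves F. cronquistii had the largest sum, 8726 RPM, followed by F. pubescens with 6676, F. brownii with 5191, F. bidentis with 4669, F. trinervia with 4545, F. angustifolia with 3924, F. kochiana with 2672 and F. pringlei with 2322 RPM. Among juvenile leaves F. pubescens had 22482 RPM, F. cronquistii 21351, F. angustifolia 18411, F. brownii 18105, F. palmeri 12977, F. bidentis 12826, F. vaginata 12514, F. pringlei 10325, F. trinervia 9843 and F. sonorensis 7698 RPM. The largest mature sum, that of F. cronquistii, lay above the smallest juvenile sum, that of F. sonorensis, and below the other 9. With 1 library per species and stage, the order of neighbouring species has no replicate check.

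**Figure D2:**
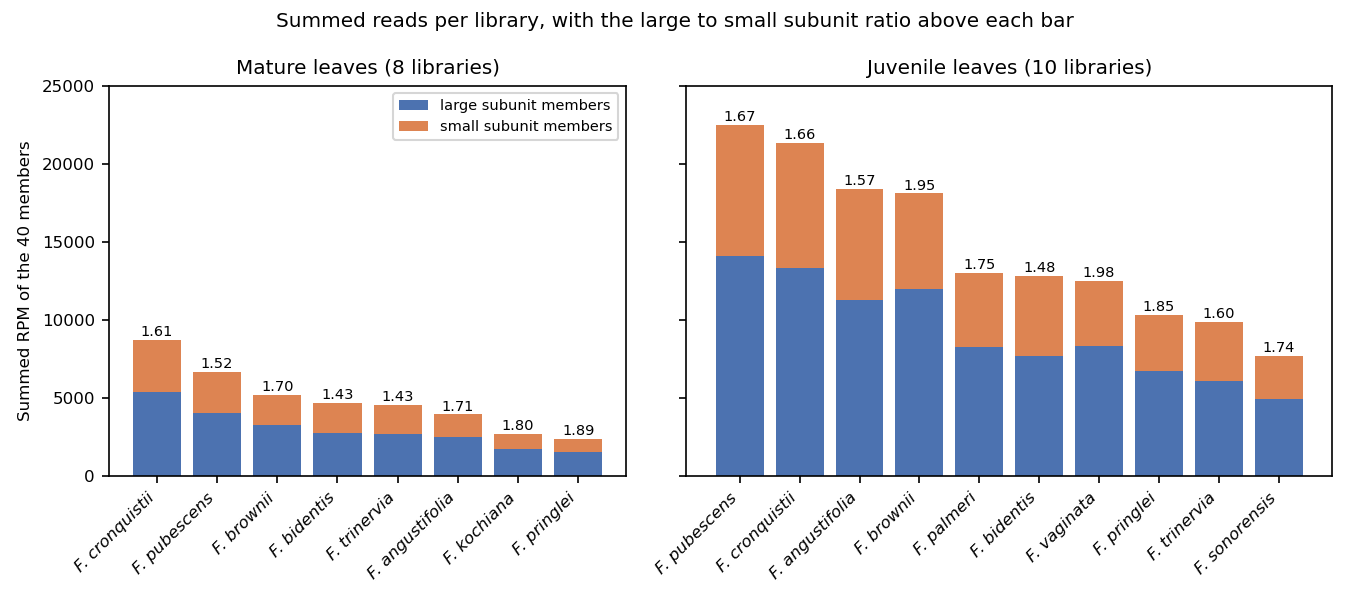
Summed RPM of the 40 members per library, with large (blue) and small (orange) subunit loci stacked and the large to small ratio printed above each bar, mature leaves left and juvenile leaves right, on axes that start at 0. The sums run from 2322 to 8726 RPM in mature leaves and from 7698 to 22482 RPM in juvenile leaves, while the ratio stays between 1.43 and 1.98.

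Species medians of the stage difference ranged more widely than the fitted changes of single members (−2.04 to −1.31). The SD between the 7 species medians was 0.420. Within a species the SD between members was 0.317 on average, from 0.186 in F. bidentis to 0.461 in F. angustifolia. The median member changed by −2.24 in F. angustifolia, −2.13 in F. pringlei, −1.71 in F. brownii and in F. pubescens, −1.41 in F. bidentis, −1.23 in F. cronquistii and −1.16 in F. trinervia. In summed RPM, the juvenile leaf held 4.69 times the mature value in F. angustifolia and 2.17 times in F. trinervia. The smallest differences were −0.34, of RPL11A in F. cronquistii, and −0.33, of RPL9C in F. brownii. The widest was −3.25, of RPS24A in F. angustifolia. Medians of 6 dividing cell markers (replication, mitosis and cytokinesis genes) moved in the same direction, by −3.91 in F. angustifolia, −4.15 in F. pringlei, −4.72 in F. brownii, −3.87 in F. pubescens, −1.79 in F. bidentis, −2.93 in F. cronquistii and −3.02 in F. trinervia. The part of cell proliferation in the ribosomal protein difference was not tested.

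**Figure D3:**
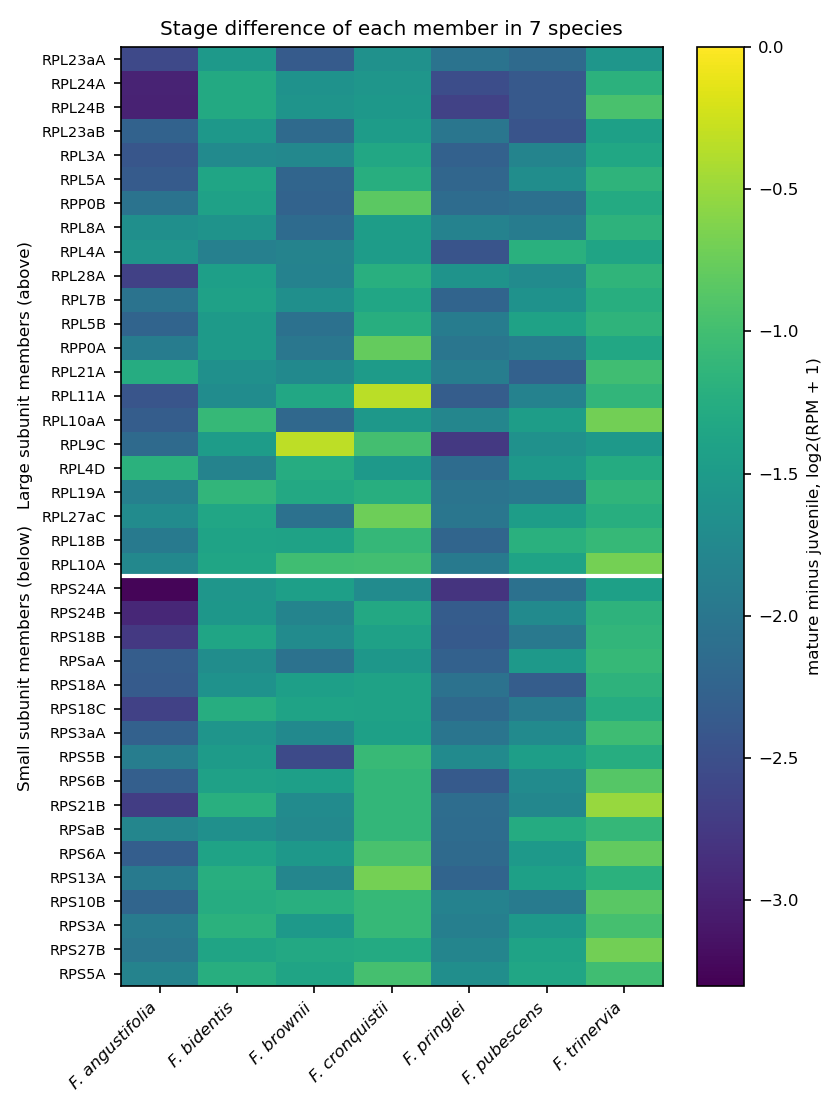
Mature minus juvenile difference in log2(RPM + 1) for 39 members (rows, large subunit above the white line and small subunit below, each sorted by fitted change) in 7 species (columns); darker means lower in the mature leaf. Column medians range more widely than the fitted changes by row. F. angustifolia and F. pringlei are mostly dark (medians −2.24 and −2.13) and F. trinervia is light (−1.16). F. angustifolia also has lighter rows, such as RPL4D (−1.20) and RPL21A (−1.26).

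The spread of the members between species lay near or above that of other loci, depending on stage and scaling. The SD of log2(RPM + 1) between the 8 mature libraries had a median of 0.691 over the 39 members, from 0.485 for RPL8A to 0.963 for RPL18B, against 0.622 over all tested loci and 0.656 over loci of at least 100 RPM. Between the 10 juvenile libraries it had a median of 0.607, from 0.381 for RPL10A to 0.949 for RPSaA, against 0.547 and 0.549. With TMM scaling the members' median was 0.720 in mature leaves, against 0.607 over all tested loci and 0.671 over the abundant ones, but 0.538 in juvenile leaves, against 0.531 and 0.537. The SD was larger in mature leaves for 32 of 39 members, and for 30 when both stages were limited to the 7 paired species. This was not particular to the members. The median SD over all tested loci was also larger in mature leaves, 0.622 against 0.547, and 0.609 against 0.547 in the 7 paired species. The share of all loci with the larger SD in mature leaves was not counted. Much of the members' spread was common to the members of a library, since the median SD after subtraction of each library's median member was 0.334 in mature and 0.327 in juvenile leaves. Plastid ribosomal proteins had median SDs of 0.489 in mature and 0.430 in juvenile leaves, and cytosolic translation factors 0.465 and 0.442.

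**Figure D4:**
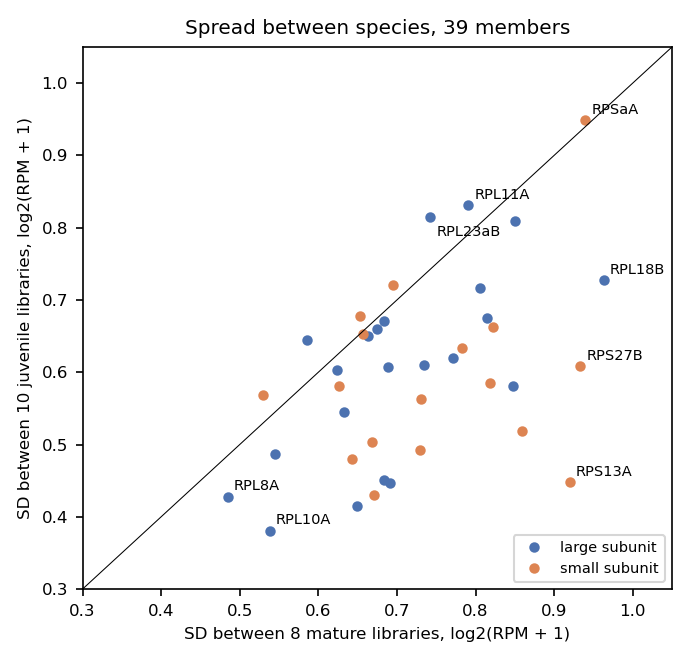
SD of log2(RPM + 1) between the 8 mature libraries (horizontal) and between the 10 juvenile libraries (vertical) for 39 members, large subunit in blue and small subunit in orange, with equality as the diagonal. For 32 members the point lies below the diagonal, with the mature spread the larger, and the median SD over all tested loci was also larger in mature leaves (0.622 against 0.547). RPSaA is far out on both axes. RPS13A (0.920 against 0.448) and RPS27B (0.933 against 0.609) vary more in mature than in juvenile leaves.

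Some members departed from the rest of their library, in 1 or more species. Relative to the library's median member and to the member's own median over the stage, RPSaA was 1.40 higher in juvenile F. cronquistii on the log2 scale, where it had 1461 RPM against 803 RPM in the next library. RPL18B stood 1.02 higher in mature and 1.17 higher in juvenile F. cronquistii. RPS21B was at −1.42 in mature and −1.48 in juvenile F. cronquistii, and RPL9C at −1.35 in mature and −1.37 in juvenile F. pubescens. These departures therefore came back at the other stage of the same species, that of RPSaA at a smaller size (0.79 in mature F. cronquistii). RPL21A was at −1.19 in mature and −0.59 in juvenile F. cronquistii, and RPS27B at 1.18 in mature and 0.80 in juvenile F. trinervia. By contrast RPL4D was at −1.27 in juvenile F. angustifolia, while its lowest mature departure was −0.20, in F. bidentis. RPL11A was at −1.64 in juvenile F. cronquistii, with 42.0 RPM, but at −0.57 in its mature leaf. RPL10A was 1.22 higher in mature F. kochiana, at 377 RPM, a species with no juvenile library. RPL9C, low in F. pubescens, was also 1.02 higher in juvenile F. trinervia.

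Such species differences recurred over the whole list. For the 39 members and 7 paired species, departures from the library's median member had the same sign at both stages in 204 of 273 cases (74.7%), and the mature values followed the juvenile values with r = 0.744. Within single members r over the 7 species had a median of 0.755 and ranged from −0.538 to 0.975, with 35 of 39 above 0. The same species was highest at both stages for 18 members and lowest for 19. These measures were not taken for other loci, so they cannot be called particular to this list. The libraries of a species share its gene copies and hence the way its reads were matched to Arabidopsis loci, and the part of read assignment in these departures was not tested.

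Copies of 1 family varied together. The 12 pairs of tested copies, in 10 families, had r from 0.887 to 0.980 over the 18 libraries (median 0.955), against a median of 0.891 over all 741 pairs of members, with the stage difference contained in both. Within stages the medians were 0.923 for copies and 0.776 for all pairs in mature leaves, and 0.882 and 0.663 in juvenile leaves. The closest copies were RPS6A with RPS6B and RPL5A with RPL5B (r = 0.980 each). RPS18A with RPS18C was the least alike (r = 0.887). RPS18A had between 1.19 times the reads of RPS18C, in juvenile F. vaginata, and 4.18 times, in juvenile F. pubescens. The part of reads shared between similar copies in these values was not tested.

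Further genes of the translation machinery gave lists of their own, chosen by function, though with earlier results of these data known. Of 120 other cytosolic ribosomal protein loci, 120 fell and 0 rose, with a median change of −1.64. The largest changes were those of RPL38B (−2.26 ± 0.28), RPL38A (−2.25 ± 0.28) and RPL31A (−2.20 ± 0.25), all of the large subunit. The smallest was that of RPL10C, a copy of RPL10A, at −0.59 ± 0.23 (adjusted p = 0.0481). RPL10C was lower in mature leaves of 5 of 7 species, and with TMM scaling its adjusted p was 0.381, so its fall depends on the scaling. With TMM 118 of 119 tested loci of this list fell.

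Plastid ribosomal proteins, encoded in the nucleus and working in the chloroplast, fell in 27 of 27 tested loci, with a median of −1.30. With TMM scaling 23 of them fell. PRPL3 (−1.66 ± 0.17), PRPL18 (−1.65 ± 0.21) and PRPL9 (−1.62 ± 0.27) had the largest changes. The cytosolic list thus had the lower median, and that difference between lists was not tested.

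Genes that build ribosomes had a median change of −0.79, and the difference from the members was not tested. Of 22 tested biogenesis loci, 17 fell and 0 rose (9 fell and 2 rose with TMM). CBF5 (−1.34 ± 0.19) and NOP58 (−1.22 ± 0.16), of the small nucleolar particles that modify ribosomal RNA, and WDR12 (−1.16 ± 0.15), of a complex for large subunit processing, had the largest changes. By contrast EIF6A (0.27 ± 0.19), LSG1-2 (0.33 ± 0.17) and NMD3 (0.07), which act late in the maturation or export of the large subunit, did not pass the test as deposited. With TMM, EIF6A was at 0.61 (adjusted p = 0.0130) and LSG1-2 at 0.66 (adjusted p = 0.00661). The nucleolin loci NUC1 and NUC2 were below the filter.

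Among 27 translation factors, 19 fell and 0 rose, with a median of −0.74 (12 fell and 2 rose with TMM). RACK1A, RACK1C and RACK1B, copies of a scaffold protein bound to the small subunit, had the largest changes, at −1.36 ± 0.16, −1.32 ± 0.16 and −1.20 ± 0.18. The 3 copies of the elongation factor ELF5A did not pass as deposited, with ELF5A-1 at 0.09, ELF5A-2 at 0.13 and ELF5A-3 at 0.02. With TMM scaling ELF5A-1 was at 0.43 (adjusted p = 0.0392) and ELF5A-2 at 0.47 (adjusted p = 0.0303), and both passed.

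**Figure D5:**
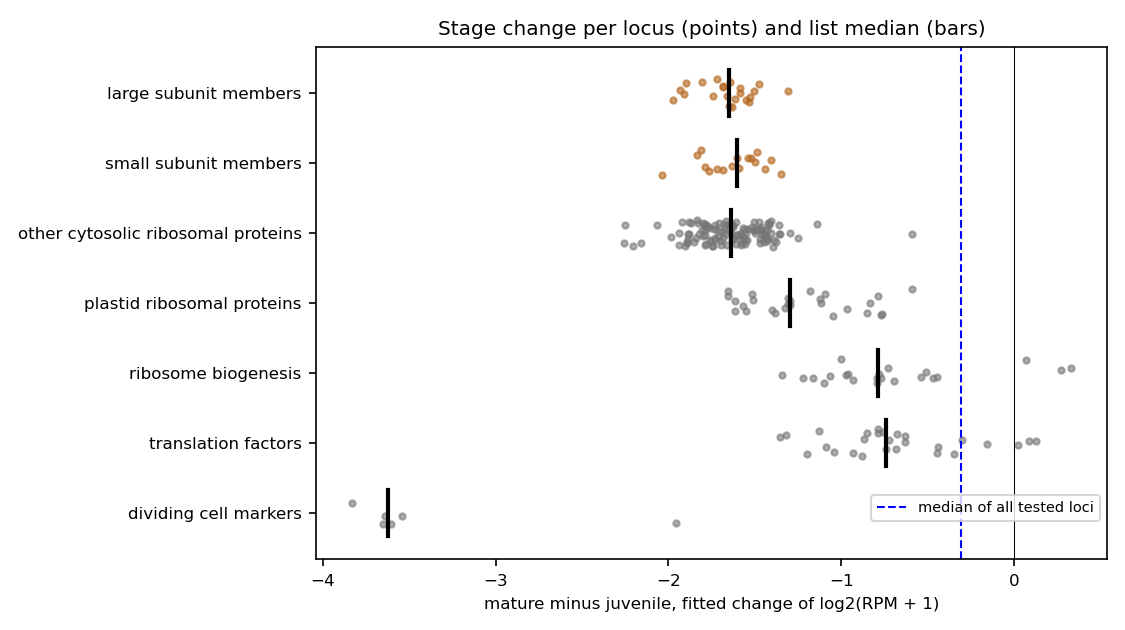
Fitted mature minus juvenile change in log2(RPM + 1) of each tested locus (points) in 7 lists, with list medians as black bars and the median of all tested loci (−0.31) as a dashed line. The large (−1.65) and small (−1.60) subunit members lie with the other cytosolic ribosomal proteins (−1.64), left of plastid ribosomal proteins (−1.30), biogenesis loci (−0.79) and translation factors (−0.74), and right of dividing cell markers (−3.62).

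The sum of the dividing cell markers was 14.9 ± 8.79 RPM in mature libraries (8.90 to 35.6) and 172 ± 78.6 RPM in juvenile libraries (63.0 to 326), and 6 of 6 tested markers fell. CYCB1;1 was below the filter. Markers of old leaves summed to 42.1 to 933 RPM in mature and 5.19 to 57.3 RPM in juvenile libraries, with the largest sum in F. brownii. Markers of the shoot meristem and flower summed to 1.40 to 9.67 RPM in mature and 3.55 to 17.6 RPM in juvenile libraries. The 2 tested of these 5 markers changed by −0.98 and −0.49. Of them 1 fell as deposited (adjusted p = 0.0114, limma) and 0 with TMM scaling. The part of these tissue and age differences in the ribosomal protein values was not tested.

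The last comparison asked whether ribosomal protein messages differ with photosynthetic type. In mature leaves (4 C4-type against 4 C3-type species), 0 of 39 members passed in limma, against 0.0288% of 13909 loci higher and 0.0144% lower. At an unadjusted p under 0.05 limma gave 0 members, against 8.16% of loci. On the recovered reads edgeR called 0 members, but it also called 0 of the 13909 loci higher and 0 lower. At an unadjusted p under 0.05 edgeR gave 2 members, against 9.88% of loci. C4-type minus C3-type, the median difference was −0.09, and single members ran from −0.97 ± 0.52 for RPSaA to 0.59 ± 0.43 for RPL21A (SE). RPSaA had 74.0 to 182 RPM in mature C4-type leaves and 85.9 to 496 RPM in mature C3-type leaves, which overlapped. RPL21A had 29.2 to 63.4 RPM in mature C4-type leaves and 13.2 to 43.6 RPM in mature C3-type leaves, which overlapped as well.

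In juvenile leaves (5 against 5 species) 0 of 39 members passed in limma, against 0.248% of 14536 loci higher and 0.0550% lower. At an unadjusted p under 0.05 limma gave 0 members, against 10.4% of loci, and edgeR gave 0 by either measure. Over the 14536 loci edgeR had 1633 at an unadjusted p under 0.05, and it called 35 higher and 6 lower. The median difference was −0.19, from −0.70 ± 0.49 for RPSaA to 0.66 ± 0.34 for RPL21A, and 27 of 39 were negative, against 55.2% of all tested loci. With standard errors of 0.37 to 0.58 in mature and 0.28 to 0.49 in juvenile leaves, differences of the size of these estimates were not detectable with this number of species. Types are also grouped by descent in this genus, and type and shared ancestry cannot be told apart.

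Whether the stage difference itself depended on type was tested in the 7 paired species (3 C4-type against 4 C3-type). Of the 39 members 0 passed, as did 0.00% of the 14500 loci. The interaction was positive, meaning a smaller fall in the C4-type species, in 36 of 39 members, with a median of 0.35 against 0.13 over all loci; 39.3% of all loci were negative. With TMM scaling the member median was 0.24, against 0.02 over all loci, and 7 members were negative, against 48.4% of all loci. At an unadjusted p under 0.05, limma gave 3 members (7.69%), near the 7.08% of all loci, and edgeR gave 2, against 6.97% of loci. The 3 were RPL24B (1.11 ± 0.37), RPL24A (0.99 ± 0.36) and RPS24A (0.98 ± 0.38), each with an adjusted p of 0.648 or above. The stage differences of RPL24B were −0.94 in F. trinervia, −1.29 in F. bidentis and −1.59 in F. brownii, against −1.54 in F. cronquistii, −2.38 in F. pubescens, −2.65 in F. pringlei and −2.98 in F. angustifolia. The types overlapped in F. brownii and F. cronquistii.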

How the data were processed

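The authors deposited 1 table of RPM for 20551 Arabidopsis loci in 18 Flaveria libraries, each summing to 1e+06. Build TAIR10 is named, per the submitters' processing notes, and the aligner, the counting rule and the treatment of multiply matching reads are not given in the sources used here. Divided by the smallest RPM step of a library, 100% of the deposited values came out whole (tolerance 0.001 read), which gave the reads for the edgeR alternative. Column names were matched to the labels through species and stage. Symbols and roles are textbook knowledge for Arabidopsis loci, and the files hold neither gene names nor gene lengths.

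The members, the other lists and the tests were chosen with earlier results of these data known. Loci that averaged 2 RPM or more over a fit's libraries were tested on log2(RPM + 1) with limma 3.58.1 (moderated variances with a mean trend, R 4.3.3), two-sided, at a Benjamini-Hochberg adjusted p under 0.05 over all tested loci. This scale understates changes of low loci. Stages were compared in 14 libraries with species as a block, as species names in the labels pair the stages, and types within each stage. Alternatives were TMM scaling and edgeR 4.0.16 (quasi-likelihood), a pseudocount of 0.1, no filter or a minimum of 10 RPM, no block, all 18 libraries in the type comparison (with statmod 1.5.0), and each species left out in turn; edgeR for the type comparisons was added after seeing the data. Fits were checked on simulated data. There the stage change was the same in all species of a type, whereas species medians differed here, so error rates for these data were not measured. Genes with individual values are, per subunit, the 3 with the most reads and the 3 largest and 3 smallest stage changes, and over all members the 3 largest and smallest juvenile SDs. In each other list they are the 3 largest changes and loci that moved against the majority. Other named genes, among them RPS18A, RPS13A, RPL21A and the species departures, were chosen after their values were seen. Summaries and plots used Python 3.11.15, numpy 2.4.6, pandas 2.3.3 and matplotlib 3.10.9. The 3 libraries of other genera were not analysed here.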

Additional observations from a re-analysis of the deposited data

How the results depend on the processing

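The count of 39 members lower and 0 higher in mature leaves was the same under TMM scaling, edgeR, a pseudocount of 0.1, no filter, a minimum of 10 RPM and every leave-one-out fit. Without the replicate block it was 39 as well, with a median of −1.63. Leaving out 1 species moved the median member change between −1.73 and −1.57, that of the large subunit between −1.73 and −1.57 and that of the small subunit between −1.73 and −1.50. The counts of members called by type, or by stage and type, were 0 under TMM scaling, edgeR, a pseudocount of 0.1, no filter and every leave-one-out fit, and in juvenile leaves also with all 18 libraries and species as a random block; the minimum of 10 RPM was run for the stage comparison alone. Without F. brownii the calls by type over all loci went to 74 higher and 30 lower in mature leaves, against 4 and 2, and to 156 higher and 97 lower in juvenile leaves, against 36 and 8. Leaving out another species gave 2 to 11 higher and 1 to 3 lower in mature leaves and 17 to 42 higher and 0 to 17 lower in juvenile leaves, and the fit of all 18 libraries gave 101 higher and 35 lower. Over all loci, calls lower in mature leaves went to 3101 and calls higher to 739 without the block, against 5448 and 1843 with it. The large to small subunit ratio depends on its definition: as a ratio of family means it was 1.06 in mature and 1.12 in juvenile leaves, and as a ratio of geometric means 1.21 and 1.26. Depth did not limit the 39 tested members, which had at least 41 reads in every library, whereas RPL9B, with 0 to 3, could not be assessed. With 1 library per species and stage, nothing here measures the spread between plants.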
